A study of Mus musculus with 2 samples.

Results

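The muscle kelch-like genes described here are Klhl40, Klhl41, Klhl31, Klhl30, Klhl38 and Klhl33, 6 of the 21911 protein-coding genes of the GENCODE M21 annotation of the mouse build mm10 (GRCm38). They were chosen by name, and all 6 were found in the annotation. For each gene the peaks and footprints in the gene body and 10 kb on either side were taken. The measurements were DNase-seq of the gastrocnemius (a large muscle of the calf) from B6CASTF1/J females at 2 months of age, F1 animals that the labels also call B6Cast. In DNase-seq the nuclease DNase I cuts accessible chromatin in nuclei, and the cut ends are sequenced. The study holds 1 group of 2 libraries, numbered biological replicates 1 and 2, with no treatment. Each library has its own biosample in the labels, whose description numbers the females differently, yet both carry 1 donor identifier. The identifier and the descriptions thus differ on whether 1 or 2 animals were used, and the spread between libraries may be partly technical. No comparison between groups was possible, and no p-value is given.

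Kelch-like proteins of this kind carry a BTB domain, a BACK domain and a set of kelch repeats that fold into a propeller. Many act as substrate adaptors of the cullin-3 ubiquitin ligase, with the BTB domain binding the cullin and the propeller binding the target. In striated muscle some members also stabilise their partners: KLHL40 and KLHL41 bind thin filament proteins such as nebulin, KLHL40 also binds leiomodin-3, and recessive mutations of either gene cause nemaline myopathy in humans. KLHL31 has been tied to filamin C, a Z-disc crosslinker. KLHL30, KLHL38 and KLHL33 are less well characterised.

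Replicate 1 held 66984 peaks of median width 208 bp and replicate 2 held 258342 of median width 160 bp. The peaks of replicate 1 overlapped those of replicate 2 in 76.8% of cases, and those of replicate 2 overlapped replicate 1 in 20.2%. The overlapping peaks merged into 49160 shared peaks. Sequencing depth was not stated, and no peak's depth is known. The labelled tissue was checked with marker genes by counting promoter peaks in both libraries. All 8 of 8 myofibre markers had one, among them Acta1, Ckm and Ryr1, as did 4 of 4 fibroblast and 3 of 5 endothelial markers. The count was 1 of 5 for heart muscle (Myl4), 1 of 3 for satellite cells (Chodl), 0 of 4 for macrophages and 0 of 3 for hepatocytes. In replicate 2 taken by itself, 3 of 4 macrophage and 3 of 3 satellite cell markers had a promoter peak, against 70.8% of all protein-coding genes. The part these other cells have in the peaks below was not tested, and in a whole tissue fewer cells of a type and less accessibility per cell cannot be told apart.

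Each of the 6 genes had a promoter peak, within 1 kb of an annotated start, in both libraries. The background share was 60.0% of all protein-coding genes, and in single libraries it was 60.6% in replicate 1 and 70.8% in replicate 2. Among the 9440 genes whose CpG ratio was no higher than that of Klhl41, the highest of the 6, the share was 23.2%. This ratio is the observed over expected number of CpG dinucleotides within 500 bp of the gene's 5′ end. It was 0.449 at Klhl41, 0.436 at Klhl40, 0.300 at Klhl33, 0.265 at Klhl31, 0.253 at Klhl38 and 0.149 at Klhl30, against a median of 0.552 over all genes. All 6 promoters thus lay below the median in CpG, and 15.6% of genes had a lower ratio than Klhl30.

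The promoters differed widely in strength, and both libraries ordered them alike. The order from strong to weak was Klhl38, Klhl40, Klhl31, Klhl33, Klhl30 and Klhl41. The authors' signal of the strongest promoter peak of Klhl38 was 2.83 in replicate 1 and 4.28 in replicate 2. That of Klhl40 was 2.46 and 4.22. Klhl38 and Klhl40 were the closest neighbours in this order. For Klhl31 the values were 1.89 and 3.91, and for Klhl33 they were 1.49 and 2.57. The signal of Klhl30 was 1.05 and 1.88, and that of Klhl41, the weakest, was 0.503 and 0.813. The scale of the signal is not stated, so its level is compared only within a library.

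**Figure D1:**
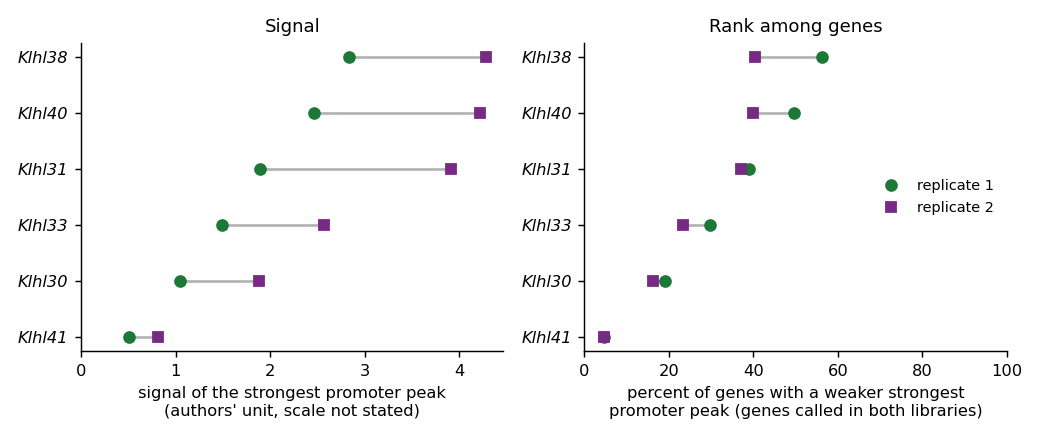
The left panel plots the authors' signal of each gene's strongest promoter peak in replicate 1 (circles) and replicate 2 (squares), and the right panel plots the percent of the 13149 genes called in both libraries whose strongest promoter peak was weaker. Klhl38 stands highest and Klhl41 lowest in both libraries, with 56.2% and 4.73% of called genes weaker in replicate 1.

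Among the 13149 genes called at the promoter in both libraries, these promoters were of middle to low strength. Klhl38 exceeded 56.2% of them in replicate 1 and 40.5% in replicate 2. Klhl40 exceeded 49.7% and 39.9%, and Klhl31 exceeded 38.9% and 37.2%. The lower members stood further down the order. Klhl33 exceeded 29.7% and 23.4%, Klhl30 exceeded 19.2% and 16.1%, and Klhl41 exceeded 4.73% and 4.53%. Against all peaks of the list, the Klhl38 promoter was stronger than 90.1% in replicate 1 and 96.1% in replicate 2, while the Klhl41 promoter was stronger than 30.5% and 77.2%. The median shared promoter peak of the genome exceeded 76.2% and 93.7% of the lists.

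A match to the MEF2 consensus, the binding sequence of the MADS-box factors of that name in muscle, was found beside the start of 3 of the 6 genes. The sequences that hold it are shown here because few promoters held such a match. The share was 0.499% of all shared promoter peaks, in windows of 200 bp, and 0.557% of the 32851 RefSeq promoters, of 300 bp. All 6 promoters lay below the median in CpG, and no MEF2 share at low CpG ratio was computed. Of the 6 genes, 4 matched the RefSeq promoter table of GRCm38.p6 (Klhl40, Klhl41, Klhl31 and Klhl33, in 5 entries). Klhl30 and Klhl38 did not. The entry of Klhl41 and an entry of Klhl33 held the MEF2 match, while the Klhl40 entry ended before its match. The count of 3 genes therefore rests on the peaks and not on these entries. Letters are the reference strain's, 5′ to 3′ on the strand of the gene, and alleles of the other parent strain were not analysed here. Distances count from the gene's annotated 5′ end, negative upstream. Capitals mark matches to the motif list: the MEF2 consensus, the E-boxes CAGCTG and CAGGTG (the latter printed as CACCTG on the other strand), and the AP-1 sequence TGANTCA.
Klhl41, bases -250 to -1, chr2:69669870-69670119, plus strand: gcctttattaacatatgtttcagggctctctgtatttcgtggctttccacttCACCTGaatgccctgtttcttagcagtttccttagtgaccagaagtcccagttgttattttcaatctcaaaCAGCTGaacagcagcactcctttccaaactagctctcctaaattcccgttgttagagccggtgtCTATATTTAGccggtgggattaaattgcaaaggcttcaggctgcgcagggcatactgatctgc
Klhl40, bases -250 to -1, chr9:121777357-121777606, plus strand: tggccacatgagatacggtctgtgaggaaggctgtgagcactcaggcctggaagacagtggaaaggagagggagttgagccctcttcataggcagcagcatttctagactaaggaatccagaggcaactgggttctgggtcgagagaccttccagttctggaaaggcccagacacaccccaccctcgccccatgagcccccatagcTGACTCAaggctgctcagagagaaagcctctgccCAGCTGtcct
Klhl40, bases 44 to 73, chr9:121777651-121777680, plus strand: tgggcatcctCTATATATAGcccagggcag
Klhl33, bases -226 to -1, chr14:50897508-50897733, minus strand: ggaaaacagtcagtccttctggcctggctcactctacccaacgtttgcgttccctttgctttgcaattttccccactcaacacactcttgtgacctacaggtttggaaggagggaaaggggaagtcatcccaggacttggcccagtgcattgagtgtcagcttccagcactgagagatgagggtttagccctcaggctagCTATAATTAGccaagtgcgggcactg
The MEF2 match lay 58 bp upstream of the Klhl41 5′ end, 58 bp downstream of the Klhl40 5′ end and 22 bp upstream of the Klhl33 5′ end. Klhl40 has 2 annotated starts, and the second is 84 bp downstream of the 5′ end, so the Klhl40 match lay between them. All lay inside the promoter peak of each library. All 10 bases of the Klhl40 match lay in a footprint of replicate 1 and none in replicate 2. A footprint of replicate 2 covered 4 of the 10 bases of the Klhl33 match, and the Klhl41 match touched no footprint. A footprint is a short stretch, of median width 9 bp in both libraries, where the authors called cuts depleted within accessible DNA. The E-box in the Klhl40 line lay 8 bp upstream of the start. That E-box and the AP-1 match of the same line lay in the promoter peak of replicate 1 but not in that of replicate 2. Both E-boxes of the Klhl41 line lay outside the promoter peak of either library. The AP-1 match of the Klhl40 line and both E-boxes of the Klhl41 line fell outside the 200 bp windows. They are not in the counts given further on.

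The 6 windows together held 30 peaks in replicate 1 and 62 in replicate 2, and 21 shared peaks. Some listed peaks of the same library overlapped each other, so counts per library can hold a site more than once. Such peaks were merged in the shared peaks. Of the shared peaks 10 were at the genes' own promoters, 2 at the promoter of a neighbour and 9 elsewhere, called distal. Of the 30 peaks of replicate 1, 24 (80.0%) overlapped replicate 2. Of the 62 of replicate 2, 25 (40.3%) overlapped replicate 1. Over the windows of all protein-coding genes these shares were 78.5% and 23.2%. Every gene had at least 2 shared peaks, which 53.6% of protein-coding genes had, and 5 of 6 had a distal one, which 38.3% had. The exception was Klhl33.

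**Figure D2:**
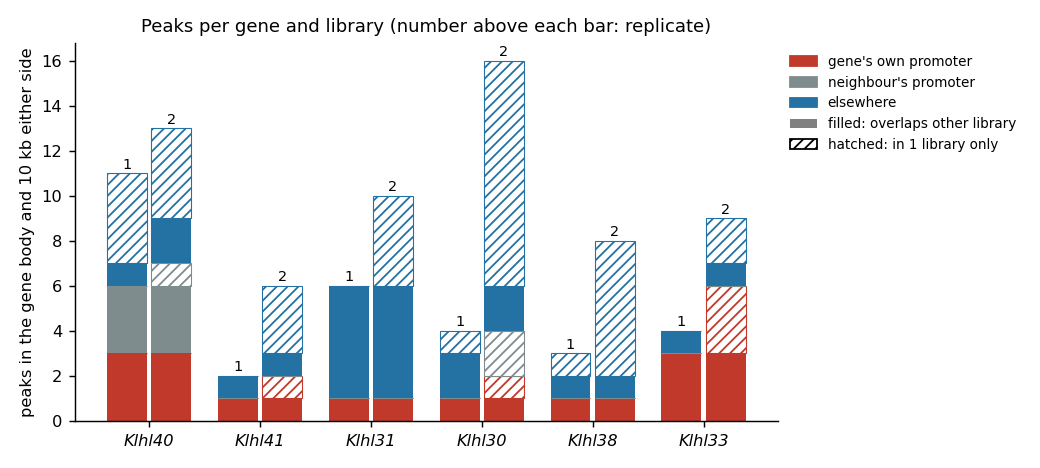
Bars give the number of peaks in each gene's window, left for replicate 1 and right for replicate 2, split by place and by overlap with the other library. Klhl30 has 4 peaks in replicate 1 and 16 in replicate 2, and 3 in each overlap the other library.

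Per 10 kb of window the genes carried between 0.586 and 2.29 shared peaks, against a median of 0.325 over all genes. Klhl40 had the densest window, with 6 shared peaks in 26.2 kb, and 96.9% of genes had a lower density. Klhl31 had 5 in 43.6 kb (1.15 per 10 kb), Klhl33 3 in 28.9 kb (1.04) and Klhl30 3 in 31.4 kb (0.955). Klhl38 had 2 in 29.6 kb (0.676) and Klhl41 2 in 34.1 kb (0.586). The median gene had 2 shared peaks in 37.4 kb. Window counts include peaks at neighbouring genes. Of the 6 of Klhl40, 2 were at a neighbour's promoter and 2 lay in the gene body. Of the 3 of Klhl30, 1 lay in the gene body. The windows of the 6 genes do not overlap, although Klhl40 and Klhl31 are both on chromosome 9.

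**Figure D3:**
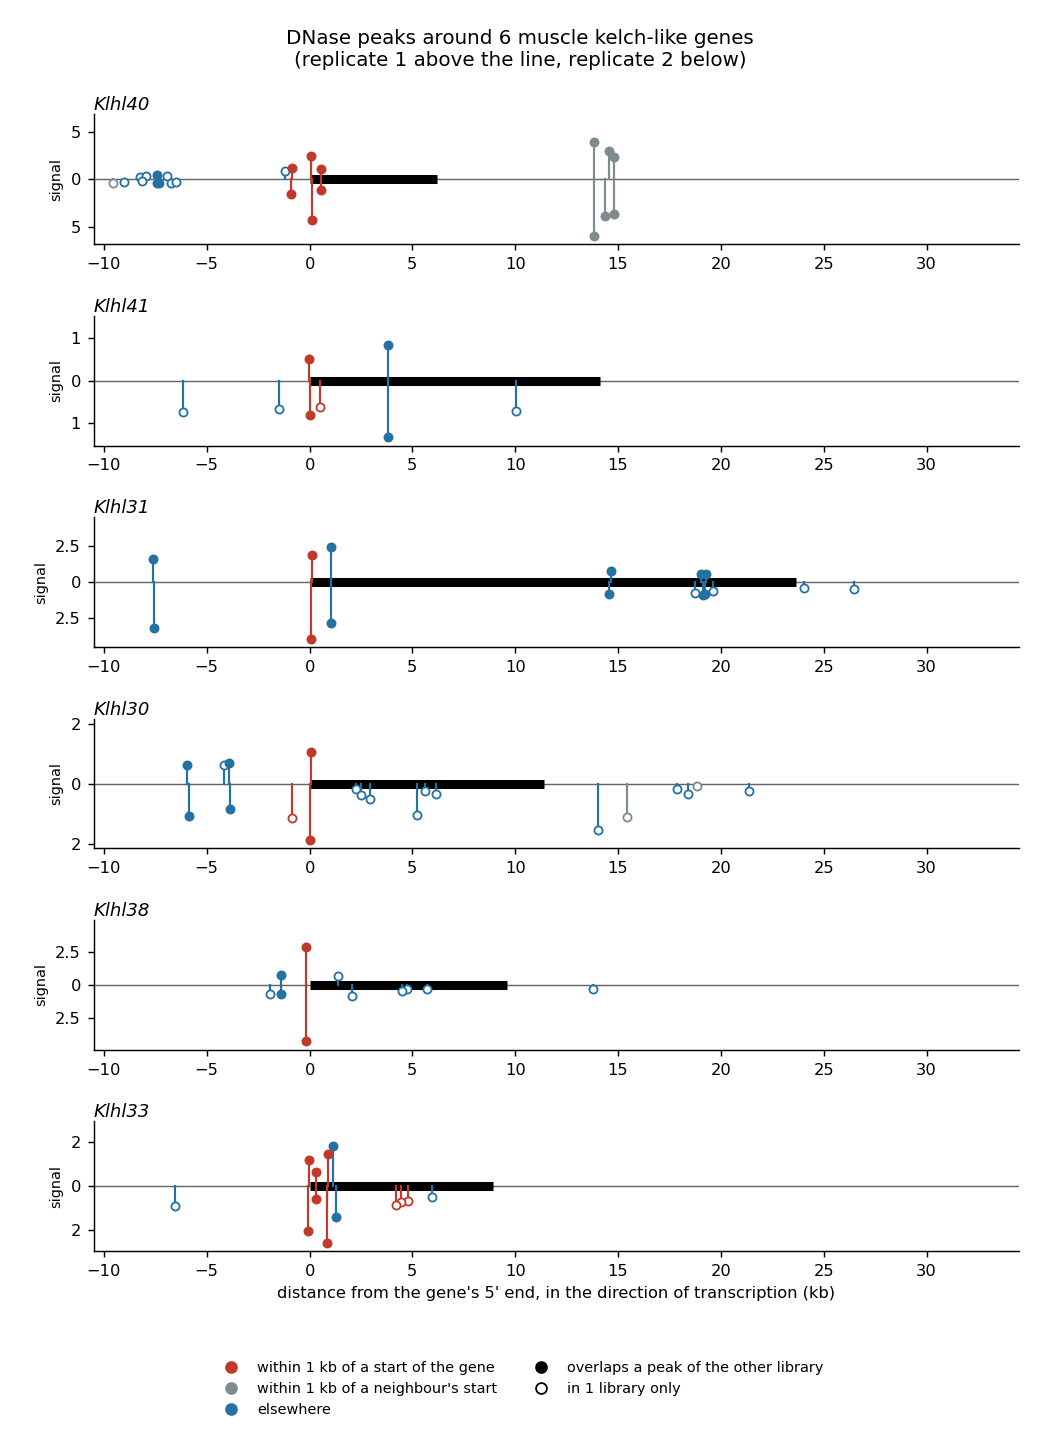
Each row maps the peaks of one gene's window by distance from its 5′ end, with the authors' signal of replicate 1 drawn upward and of replicate 2 downward on an axis scaled per gene. Filled points overlap a peak of the other library. At Klhl41 the tallest peak of both libraries is inside the gene, while at Klhl38 it is at the promoter.

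Klhl40 lies on chromosome 9 from 121777607 to 121783818, on the plus strand, and has 2 annotated starts. Its window held 11 peaks in replicate 1 and 13 in replicate 2. The main promoter peak, chr9:121777541-121777820, spans the start and the 5′ UTR, with a signal of 2.46 in replicate 1 and 4.22 in replicate 2. A second promoter peak lay 880 bp upstream, with 1.18 and 1.54, and another over the coding part of exon 1, 560 bp downstream, with 1.10 and 1.16. So the promoter carried 3 separate shared peaks, of which the central one was the strongest in both libraries. Gm47108, an annotated transcript on the opposite strand, overlaps the upstream and the central peak, and accessibility cannot be assigned to either strand.

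The upstream Klhl40 peak is printed because its CAGCTG E-box lay wholly in a footprint of replicate 1. The letters are those that the peaks of both libraries cover. Capitals mark a TATA box match (TATAAA), the AP-1 match and the E-box.
Klhl40, bases -972 to -796, chr9:121776635-121776811, plus strand: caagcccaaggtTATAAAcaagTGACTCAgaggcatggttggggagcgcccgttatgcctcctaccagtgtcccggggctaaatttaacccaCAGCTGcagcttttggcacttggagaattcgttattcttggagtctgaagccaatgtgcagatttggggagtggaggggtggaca
The E-box lay 878 bp, the AP-1 match 947 bp and the TATAAA 958 bp upstream of the start, and only the E-box touched a footprint. The other shared peaks of the Klhl40 window belonged to neighbours. Of the 2 near the start of Hhatl, a hedgehog acyltransferase-like gene, the one 13824 bp from the Klhl40 start was the strongest of all 21 in both libraries, with 3.93 and 5.92. The one at 14448 bp had 2.97 and 3.80. The remaining one, in the 3′ UTR of Zfp651, a zinc finger gene, was weak, with 0.503 and 0.426. That exon also held most of the peaks called in a single library, with 3 in replicate 1 and 5 in replicate 2, all with signals between 0.151 and 0.392. The peak of replicate 1 only at 1206 bp upstream, of signal 0.913, fell just outside the promoter limit.

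Klhl41 lies on chromosome 2 from 69670120 to 69684230, on the plus strand, with 1 start. It had the fewest peaks, 2 in replicate 1 and 6 in replicate 2, and both peaks of replicate 1 were shared. The promoter peak, chr2:69670032-69670220, had a signal of 0.503 and 0.813. The other shared peak, in intron 1 at 3800 bp downstream of the start, had 0.843 and 1.32. Klhl41 was thus the one member with a distal shared peak stronger than its promoter in both libraries, a relation found at 9.02% of the 13149 called genes. This count was made after the values had been seen. The intron peak is printed for that reason, over the letters that both libraries cover. Capitals mark CAGCTG and the glucocorticoid receptor sequence ACANNNTGT.
Klhl41, bases 3721 to 3880, chr2:69673841-69674000, plus strand: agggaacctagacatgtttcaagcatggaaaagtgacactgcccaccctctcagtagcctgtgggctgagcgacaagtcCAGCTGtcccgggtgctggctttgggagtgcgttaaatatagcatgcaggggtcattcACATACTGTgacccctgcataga
Its E-box lay 3802 bp downstream of the start, within 2 bp of the peak's midpoint. A footprint of replicate 2 covered 5 of its 6 bases, and none of replicate 1 touched it. The peak held 2 footprints in replicate 1 and 4 in replicate 2, and 2 of each overlapped the other library. Replicate 2 alone had peaks at 6150 bp upstream in intron 9 of Bbs5, at 1470 bp upstream, at 506 bp downstream over coding exon 1 and at 10048 bp downstream in intron 5. Their signals were between 0.622 and 0.723, lower than both shared peaks in that library. In the authors' segments under a false discovery rate of 0.05, 146 bp around the Klhl41 start were covered in replicate 1 and 397 bp in replicate 2, of the 2001 bp within 1 kb on either side. The medians over all genes were 304 bp and 548 bp.

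Klhl31 lies on chromosome 9 from 77636500 to 77660127, on the plus strand, with 1 start. All 6 of its peaks in replicate 1 overlapped replicate 2, and 6 of its 10 in replicate 2 overlapped replicate 1. The promoter peak, chr9:77636421-77636820, covers the 5′ UTR, with 1.89 in replicate 1 and 3.91 in replicate 2. A peak in intron 1, 1060 bp downstream and just past the 1 kb limit, had 2.44 and 2.82. It was stronger than the promoter in replicate 1 and weaker in replicate 2. A further peak 7584 bp upstream, outside any annotated gene, had 1.62 and 3.17. These were the strongest distal shared peaks among the 6 genes. The intron peak exceeded 87.7% and 93.8% of all peaks, and the upstream peak 79.5% and 94.5%, where the median shared distal peak exceeded 50.8% and 86.5%. Both are printed for that reason. Capitals mark CAGGTG in the upstream peak, and GGAATG, the TEAD sequence, and CAGCTG in the intron peak.
Klhl31, bases -7679 to -7480, chr9:77628821-77629020, plus strand: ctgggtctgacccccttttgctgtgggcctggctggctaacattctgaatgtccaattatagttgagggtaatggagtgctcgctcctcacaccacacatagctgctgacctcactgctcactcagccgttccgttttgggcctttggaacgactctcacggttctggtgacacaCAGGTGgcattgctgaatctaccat
Klhl31, bases 961 to 1160, chr9:77637461-77637660, plus strand: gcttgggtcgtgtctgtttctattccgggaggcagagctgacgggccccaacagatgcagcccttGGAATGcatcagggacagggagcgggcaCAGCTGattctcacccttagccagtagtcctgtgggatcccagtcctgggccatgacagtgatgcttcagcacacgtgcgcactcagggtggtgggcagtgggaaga
Footprints of replicate 2 covered 5 of the 6 bases of the GGAATG and all 6 of the CAGCTG of the intron peak, and none of replicate 1 touched them. The CAGGTG of the upstream peak touched no footprint. The other shared peaks of Klhl31 were over coding exons, at 14609 bp (0.784 and 0.790) and at 19090 bp (0.591 and 0.880) from the start. A CAGCTG at 19020 bp, in coding exon 3, was 1 of 2 motif matches in the 21 peaks that overlapped, by at least 1 bp, a footprint of each library, with 6 of 6 bases covered in replicate 1 and 5 in replicate 2.

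Klhl38 lies on chromosome 15 from 58314573 to 58324169, on the minus strand, with 1 start. Its promoter peak, chr15:58324181-58324500, was the strongest own promoter peak of the 6 genes, with 2.83 in replicate 1 and 4.28 in replicate 2. Its midpoint lay 182 bp upstream of the start. The peak held 5 footprints in each library, and 3 of each overlapped the other library. A TATAAA 144 bp upstream of the start was the other match that overlapped a footprint of each library, but each covered it only in part, 4 of its 6 bases in replicate 1 and 3 in replicate 2. The second shared peak, 1389 bp upstream, had 0.749 and 0.684. Inside the gene no peak was shared. Replicate 1 had a peak over coding exon 2 at 1394 bp (0.673), and replicate 2 had its own at 2065 bp in the same exon (0.841). Replicate 2 had 3 more in intron 2, with signals of 0.336, 0.336 and 0.482. Gm15943, an annotated transcript that overlaps the gene, covers these positions too.

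Klhl33 lies on chromosome 14 from 50888582 to 50897507, on the minus strand, with 4 annotated starts, the most of the 6. More starts widen the stretch in which a promoter peak can fall. All 4 peaks of replicate 1 and 4 of the 9 of replicate 2 overlapped the other library, and the 3 shared peaks were all at promoters. The one at the 5′ end, 54 bp upstream, had 1.19 in replicate 1 and 2.05 in replicate 2. The one at 300 bp, in the 5′ UTR, had 0.662 and 0.577. The one at 992 bp merged 2 peaks of each library, the strongest with 1.84 and 2.57. It was only just inside the 1 kb limit, 940 bp from the nearest start, and a peak of each library within it lay outside the limit, at 1076 bp and 1226 bp. For this reason the strongest promoter peak of replicate 1 was given as 1.49. Replicate 2 alone had peaks of 0.852, 0.723 and 0.667 near an internal start, between 4186 and 4785 bp from the 5′ end. Segments under the false discovery limit covered 1105 bp and 1004 bp around the 5′ end, the most of the 6 genes in both libraries.

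Klhl30 lies on chromosome 1 from 91351016 to 91362416, on the plus strand, with 1 start. Its peak counts differed most between the libraries, with 4 peaks in replicate 1 and 16 in replicate 2, and 13 of the 16 were in replicate 2 only. The promoter peak, chr1:91350941-91351120, covers the 5′ UTR, with 1.05 in replicate 1 and 1.88 in replicate 2. The 2 other shared peaks lay in the last exon of Espnl, an espin-like actin-bundling gene upstream. Their signals were 0.626 and 1.08 at 5908 bp, and 0.685 and 0.841 at 3876 bp upstream. So no peak inside Klhl30 beyond its 5′ end was shared. The strongest peaks of replicate 2 only were at 14031 bp, beyond the gene's 3′ end (1.55), at 836 bp upstream (1.14), at the start of Erfe at 15432 bp (1.10) and in intron 3 at 5239 bp (1.06). Erfe encodes erythroferrone, a hormone that lowers hepcidin. None of these 4 had a segment of replicate 1 under the false discovery limit. Of all 37 peaks of replicate 2 only in the 6 windows, 2 (5.41%) had such a segment, against 2.91% of all such peaks in the genome. Of the 6 peaks of replicate 1 only, 2 (33.3%) had a segment of replicate 2, against 17.5%.

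Footprints were called in both libraries over most shared peaks. The 21 shared peaks held 58 footprints of replicate 1 and 63 of replicate 2. Of these, 30 and 28 overlapped a footprint of the other library by at least 1 bp. Of the overlapping ones, the Hhatl peak at 13824 bp held 3 and 3, and that at 14448 bp held 8 and 7. A footprint seen in both libraries was present in 14 of the 21 peaks. These shares were not computed over all shared peaks, so whether they are usual is not known. The Klhl40 window held 26 and 24 of the footprints, of which 15 and 15 were at Hhatl. Klhl33 held 13 and 10, Klhl38 7 and 6, Klhl31 5 and 14, Klhl30 4 and 3, and Klhl41 3 and 6. All 3 footprints of replicate 1 at Klhl41 overlapped one of replicate 2.

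**Figure D4:**
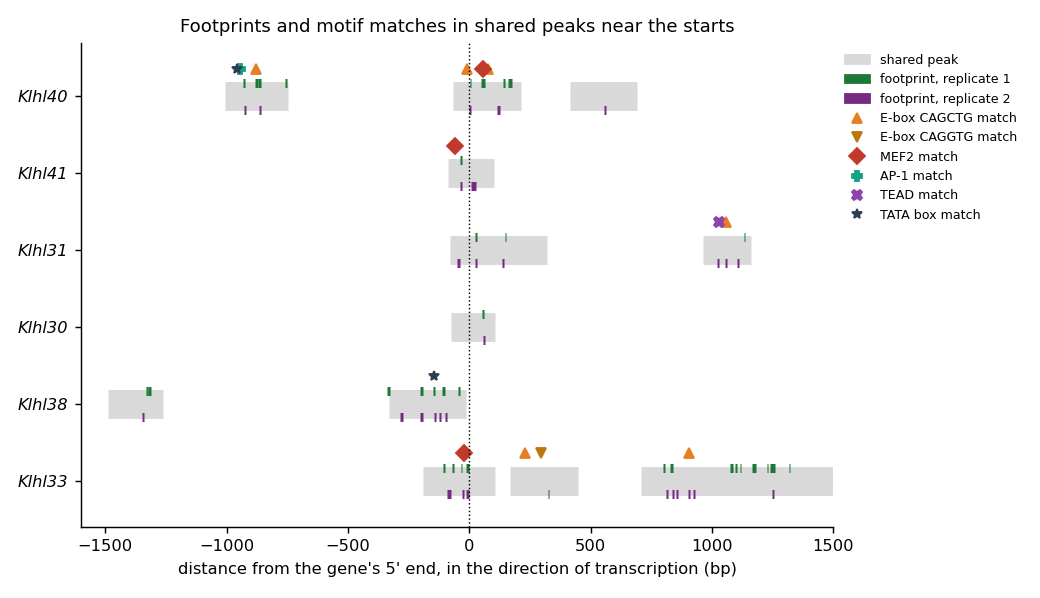
Footprints of replicate 1 (upper ticks) and replicate 2 (lower ticks) are drawn over shared peaks (grey) near each gene's 5′ end, with matches to 6 motifs above them, against distance in bp. The MEF2 matches lie within 58 bp of the 5′ ends of Klhl40, Klhl41 and Klhl33.

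Motif matches were counted in 200 bp around the midpoint of each shared peak, on both strands. CAGCTG, an E-box bound by myogenic factors among others, was found in 9 of the 21 peaks, against 23.2% of all shared peaks. Own promoter peaks held it in 4 of 10 cases, against 15.5% of all shared promoter peaks. Distal peaks held it in 4 of 9 cases, against 29.4% of all distal shared peaks. Of RefSeq promoters, which are 300 bp long, 16.3% held it. It occurred in the windows of 5 genes, all but Klhl38. The E-box CAGGTG was found in 5 of 21, against 16.1%. The MEF2 sequence was found in 3 of 10 own promoter peaks, as described above. It was in 0 of 9 distal peaks, where 1.26% of all distal shared peaks held it. TATAAA was found in 3 of 21 (3.48% of all shared peaks), ACANNNTGT in 2 (4.95%), TGANTCA in 1 (8.08%) and GGAATG in 1 (11.2%). GGGCGG, the GC box bound by SP and KLF factors, was found in 0 of the 10 own promoter peaks. Of all shared promoter peaks 50.9% held it. This sequence contains a CpG, the 6 promoters lay below the median in CpG, and no share at low CpG ratio was computed for it. GGGCGG was found in 2 of the 9 distal peaks, where 11.6% of all distal shared peaks held it. Both CTCF cores and the CArG box, MEF3 (TCAGGTT) and NFI pair sequences were found in none of the 21, and 4.07% or fewer of all shared peaks and RefSeq promoters held each. Of the 28 matches in all, 12 overlapped a footprint of at least 1 library by at least 1 bp and 2 a footprint of each. Wholly inside a footprint lay 6 in at least 1 library and 0 in both. A match is a description of the letters, and no binding was measured.

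The other kelch genes differed in promoter type. Of 53 such genes, 45 (84.9%) met the promoter call in both libraries, against 60.0% of all protein-coding genes. The median CpG ratio of the 53 was 0.707, against 0.282 for the 6. The median called promoter exceeded 86.4% of the peaks of replicate 1 and 96.2% of those of replicate 2, against 80.3% and 94.4% for the 6. Of all protein-coding genes with a CpG ratio no higher than that of Klhl41, 23.2% had a promoter peak in both libraries. Of the 12 other kelch genes with such a ratio, both libraries called one at 6. One of these 6 was Kbtbd12, with a ratio of 0.128. The median number of shared peaks was 2 for the other kelch genes (0.435 per 10 kb) and 3 for the 6 (0.996 per 10 kb). The most were found at Klhl29 with 21, Klhl22 with 7 and Klhl26 with 7.

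**Figure D5:**
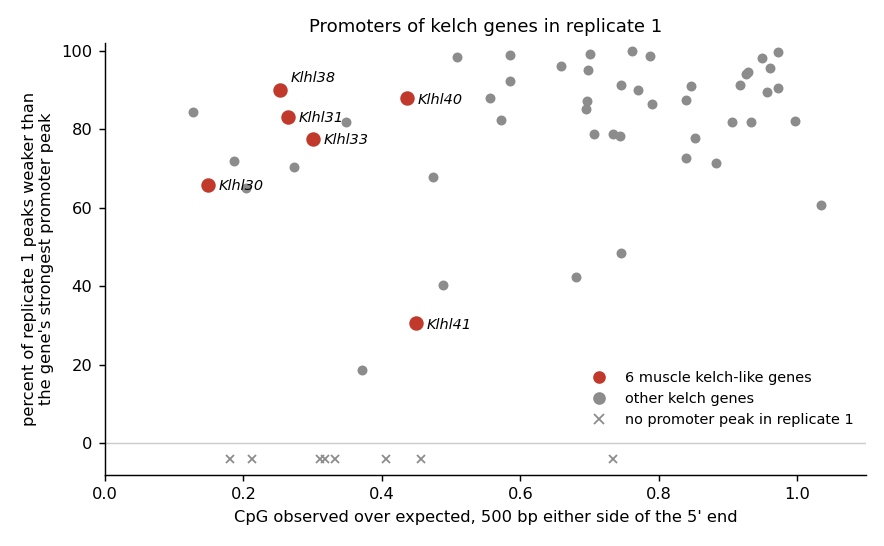
Each kelch gene is placed by the CpG ratio around its 5′ end and by the percent of replicate 1 peaks weaker than its strongest promoter peak, with crosses for genes that have no promoter peak in replicate 1. The 6 muscle kelch-like genes lie at ratios between 0.149 and 0.449, left of most others.

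Each library had a promoter peak at all 9 partner genes, where 60.0% of all protein-coding genes had one in both. The median CpG ratio of the 9 was 0.594, against 0.552 over all genes. Of the ligase core, Cul3, the scaffold, had 2 shared peaks in its window, Rbx1, the RING subunit, had 2, and Nedd8, the modifier that activates cullins, had 3. Their promoters were stronger than that of each of the 6 genes in both libraries, with signals from 2.90 (Nedd8) to 6.01 (Rbx1) in replicate 1 and from 7.40 to 19.4 in replicate 2. Other partner genes encode proteins tied to KLHL40, KLHL41 or KLHL31. Of these, Neb, which encodes nebulin, had 9 shared peaks over 262 kb, with a promoter signal of 1.94 and 2.75. Lmod3, the leiomodin that builds thin filaments, had 1 shared peak, its promoter, with 0.884 and 1.26. Lmod3 and Klhl41 were the 2 weakest promoters of these 15 genes in both libraries. Nrap, a scaffold of myofibril assembly, had 8 shared peaks (1.31 and 2.09), and Flnc, filamin C, had 12 (1.33 and 2.24). The muscle kelch genes Kbtbd12 and Kbtbd13, which are also among the 53, had 2 and 6 shared peaks, with promoter signals of 2.01 and 3.47, and of 1.50 and 2.28.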

How the data were processed

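Per the labels, DNase-seq of 2 gastrocnemius libraries is on the mouse build mm10. Peaks were called per library from filtered alignments, per the deposited README. Aligner and peak caller: not given in the sources used here. The authors gave each peak a signal that is never negative and whose scale is not stated, used only to rank peaks within a library. In the deposited footprints the p-value column is 0.01 throughout. In the deposited segments the p-value column was taken to be a false discovery rate.

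The longer of each library's 2 peak lists was used. Peaks sharing at least 1 bp were merged into shared peaks, placed by the mean of the midpoints of each library's strongest peak in them. A promoter peak has its midpoint within 1 kb of any GENCODE M21 start, and windows are the gene body plus 10 kb. The scripts used Python 3.11.15, numpy 2.4.6, pysam 0.24.0, samtools 1.23.1 and matplotlib 3.10.9. Overlap counts (51474 and 52182) were identical in bedtools 2.31.1. The overlap step was tested on simulated data, where 9916 of 20000 sites were planted as shared and 9916 were recovered. No simulated site held several peaks of the same library, so the merging of such peaks was not tested. All 6 genes, every partner gene, neighbours with a peak within 1 kb of their start, and the 3 other kelch genes with most shared peaks are named. Of the 53 other kelch genes Kbtbd12 was also named beside its CpG ratio, which was chosen after its value was seen. The genes and lists were chosen with earlier results of these data known. The background at low CpG ratio was added after the data had been seen. Alternatives were the shorter lists, stronger or equal numbers of peaks, other overlaps, promoter widths and windows, and single libraries. The 5 RefSeq promoter entries matched the genome letter for letter.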

Additional observations from a re-analysis of the deposited data

How the results depend on the processing

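The call of a promoter peak in both libraries could be lost in 6 of the 9 alternatives, since a wider promoter or a single library cannot remove it. It held for all 6 genes with equal numbers of peaks, mutual overlap of 50%, promoters of 500 bp and protein-coding starts only. With the shorter lists it held for 4, without Klhl41 and Klhl30, and 53.5% of all genes kept it. With peaks at or above the median signal it held for 5, without Klhl41, and 53.3% of all genes kept it. Each lost call was lost in replicate 1. The number of shared peaks in the windows, 21, was 11 with the shorter lists, 15 with peaks at or above the median signal, 10 in the gene bodies only and 50 with flanks of 50 kb. With one library left out it ranged from 30 to 62, since every peak of the remaining library then counts. Klhl30 had no shared peak in the shorter lists. Ranking promoter peaks among promoter peaks only lowered every rank: Klhl38, the highest, exceeded 78.9% in replicate 1 and 84.0% in replicate 2, Klhl30 46.3% and 71.4%, and Klhl41, the lowest, 15.5% and 52.0%. Requiring footprints to share at least 50% of both lengths left 18 of 30. Among values of single genes and classes, 49 moved beyond the set limits and 61 did not. No paired analysis was possible because there is a single group of 2 libraries. Depth is unknown, so a missing peak does not show closed chromatin.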
